A study of Homo sapiens with 3 samples.

Results

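The genes examined here encode the proteins that start transcription by RNA polymerase II (Pol II) at promoters: TATA-box binding protein (TBP), the TBP-associated factors (TAFs) of the general factor TFIID, the factors TFIIA, TFIIB, TFIIE, TFIIF and TFIIH, and subunits of Pol II. They were chosen by name, as a list of 46 of the 19689 protein-coding genes of the GENCODE 44 annotation. No measured value entered the rule of the list, but earlier results of these data were known when it was made. TAF4 and its paralog TAF4B were left out of the list. For each gene it was asked which of 3 peak lists held a peak within 1 kb of one of its transcription start sites (TSS), called a promoter peak here, and where that peak lay.

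The peaks came from chromatin immunoprecipitation sequencing (ChIP-seq) of HuCCT1 cells, an established line of human cholangiocarcinoma, a cancer of the bile ducts. One antibody was against SBNO1 (Strawberry Notch 1), one was against TAF4, a subunit of TFIID, and IgG served as the control, so that there were 3 libraries in all, 1 for each antibody. All 3 came from the same cell line with no genetic change or treatment named in the labels, and the chromatin was cut with an enzymatic kit. According to the study's methods, biological replicates of each antibody were pooled before sequencing, so no spread between replicates was available, no difference between antibodies could be tested and no p-value is given.

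In textbook accounts, TFIID is the factor that recognises core promoters, with TBP bending the TATA box and TAFs contacting other promoter elements and histone tails. TFIIA and TFIIB then steady TBP on the DNA, TFIIF brings Pol II, and TFIIE recruits TFIIH, whose translocase opens the DNA and whose kinase module phosphorylates the tail of the largest Pol II subunit. TAF4 is itself a core TAF, so that its peaks at these genes are peaks of a TFIID subunit at genes for its own partners.

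Promoter sequences are printed for up to 2 members of each pattern of peaks, taken in the order of the list, so that the DNA under the peaks can be read beside their values. Each is the stretch closest to the start site that holds no exon, at most 200 bases long, from the RefSeq promoter table (GRCh38.p14), written 5′ to 3′ along the gene. Capitals mark matches to short consensus words on either strand: CCGGAA (ETS factors, TTCCGG on the other strand), GGGCGG (KLF and SP factors, CCGCCC on the other strand) and CCAAT (NFY). Both SBNO1 and TAF4 had a peak at TBP and TAF1. The SBNO1 peak covered all 183 bases printed for TBP and the TAF4 peak 150 of them, and in TBP the ETS and KLF/SP words overlap by 1 base.
TBP (chr6:170554119-170554301, plus strand): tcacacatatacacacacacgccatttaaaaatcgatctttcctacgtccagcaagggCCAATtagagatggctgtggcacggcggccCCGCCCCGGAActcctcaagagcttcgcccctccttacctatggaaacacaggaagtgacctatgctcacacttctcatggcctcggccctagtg
TAF1 (chrX:71366107-71366221, plus strand): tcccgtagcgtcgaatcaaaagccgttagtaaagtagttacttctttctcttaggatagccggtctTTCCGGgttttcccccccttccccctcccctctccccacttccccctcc
At GTF2F1 and POLR2E, both genes on chromosome 19, only SBNO1 had a peak, and it covered all 200 bases printed for each.
GTF2F1 (chr19:6393206-6393405, minus strand): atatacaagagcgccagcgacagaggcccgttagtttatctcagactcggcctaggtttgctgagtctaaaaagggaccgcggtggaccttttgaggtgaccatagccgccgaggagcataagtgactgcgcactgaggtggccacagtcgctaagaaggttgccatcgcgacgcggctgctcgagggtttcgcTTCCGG
POLR2E (chr19:1095381-1095580, minus strand): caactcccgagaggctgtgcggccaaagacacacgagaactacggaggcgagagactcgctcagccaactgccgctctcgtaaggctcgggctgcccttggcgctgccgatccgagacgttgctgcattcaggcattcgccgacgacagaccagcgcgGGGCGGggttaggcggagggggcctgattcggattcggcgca
At TAF7 and TAF10 only TAF4 had a peak, which covered 112 of 125 and all 157 of the bases printed.
TAF7 (chr5:141320785-141320909, minus strand): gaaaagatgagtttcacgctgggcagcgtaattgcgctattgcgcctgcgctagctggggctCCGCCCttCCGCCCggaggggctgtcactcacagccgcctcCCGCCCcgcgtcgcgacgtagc
TAF10 (chr11:6612217-6612373, minus strand): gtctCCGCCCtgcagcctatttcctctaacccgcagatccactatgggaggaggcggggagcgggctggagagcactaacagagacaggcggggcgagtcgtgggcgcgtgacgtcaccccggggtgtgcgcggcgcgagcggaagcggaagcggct
No peak of any of the 3 libraries touched the stretches of TBPL1 and TAF3, although both hold ETS and KLF/SP words as well.
TBPL1 (chr6:133952985-133953184, plus strand): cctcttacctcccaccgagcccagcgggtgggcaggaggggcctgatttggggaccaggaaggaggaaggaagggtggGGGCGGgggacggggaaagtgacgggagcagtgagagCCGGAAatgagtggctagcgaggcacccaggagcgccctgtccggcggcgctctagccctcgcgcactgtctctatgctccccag
TAF3 (chr10:7818297-7818496, plus strand): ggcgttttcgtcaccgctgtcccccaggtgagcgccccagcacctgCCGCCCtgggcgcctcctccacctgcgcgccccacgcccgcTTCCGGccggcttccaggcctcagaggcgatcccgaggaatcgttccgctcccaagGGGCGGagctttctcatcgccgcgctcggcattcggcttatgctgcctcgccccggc

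The lists held 16147 SBNO1, 12763 TAF4 and 1598 IgG peaks, with median widths from 383 to 400 bp. Each peak carries a whole-number score of the authors, at most 1000, whose scaling was not given in the sources used here. The score was therefore used only to rank peaks within a list, and a peak at 1000 is called at the cap. Peak lists hold no read numbers, so the depth of the libraries is unknown, and the absence of a peak says only that none was listed. Among markers of biliary epithelium, KRT19, SOX9 and EPCAM had promoter peaks of both proteins and KRT7 of TAF4 alone, while none of 5 hepatocyte and 3 blood markers had a peak of any library.

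Most of the general transcription factor genes carried peaks of the proteins, and most of these carried both. An SBNO1 promoter peak lay at 26 of the 46 genes (56.5%, 95% Clopper-Pearson interval 41.1% to 71.1%), against 25.7% of all protein-coding genes. A TAF4 promoter peak lay at 31 genes (67.4%, 52.0% to 80.5%), against 31.9% of all genes. The IgG control had a peak at 1 gene, CCNH (2.17%, 0.055% to 11.5%), against 1.41% of all genes. The members' shares were thus above the background of all genes for both proteins. The IgG list was far shorter, with 1598 peaks against 16147 (SBNO1) and 12763 (TAF4). Its 1 gene, with an interval of 0.055% to 11.5%, cannot show whether the IgG share was above the background. These intervals cover counting error only, and genes are not replicates of a condition. All genes include many that may be silent in these cells, and expression was not measured in these libraries. The shares over all genes also differed between the chromosomes that hold members. For SBNO1 they ran from 8.19% on chromosome 16 to 40.4% on chromosome 5. For TAF4 they ran from 17.4% on chromosome X to 43.9% on chromosome 5. The members' counts were not adjusted for this.

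Both proteins had a promoter peak at 24 members (52.2%), where 22.6% of all genes had both. These were TBP, TAF1, TAF2, TAF5, TAF6, TAF6L, TAF9, TAF11, TAF12, TAF15, GTF2A1, GTF2B, GTF2E1, GTF2H1, GTF2H3, GTF2H4, CDK7, CCNH, MNAT1, POLR2A, POLR2B, POLR2G, POLR2H and POLR2K. At all 24 the SBNO1 peak overlapped a TAF4 peak by at least 1 bp. Over all genes the 2 counts were also close, with 4450 genes having both promoter peaks and 4392 (22.3%) having such an overlap. SBNO1 without TAF4 was seen at 2 members (4.35%, all genes 3.08%), GTF2F1 and POLR2E. TAF4 without SBNO1 was seen at 7 members (15.2%, all genes 9.29%), TAF7, TAF10, TAF13, GTF2A2, ERCC2, ERCC3 and POLR2L. No promoter peak of either was listed at 13 members (28.3%, all genes 65.0%), TBPL1, TAF3, TAF5L, TAF8, TAF9B, GTF2E2, GTF2F2, GTF2H2, GTF2H5, POLR2C, POLR2D, POLR2F and POLR2I.

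Seen from each list, the pairing of the proteins at these genes was not far from that at genes in general. Of the 26 members with an SBNO1 peak, 92.3% also had a TAF4 peak, against 88.0% of all genes with an SBNO1 peak. Of the 31 members with a TAF4 peak, 77.4% also had an SBNO1 peak, against 70.9% of all genes with a TAF4 peak. The members therefore stood apart from all genes in how many had peaks, and less in how the peaks were combined. The map of peaks by gene and library shows these patterns gene by gene. Within 1 kb of a TSS the study itself reported far fewer promoters bound by either protein, and lower shares of shared ones. The shares given here therefore describe the peak lists used and not the study's own set of bound promoters.

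**Figure D1:**
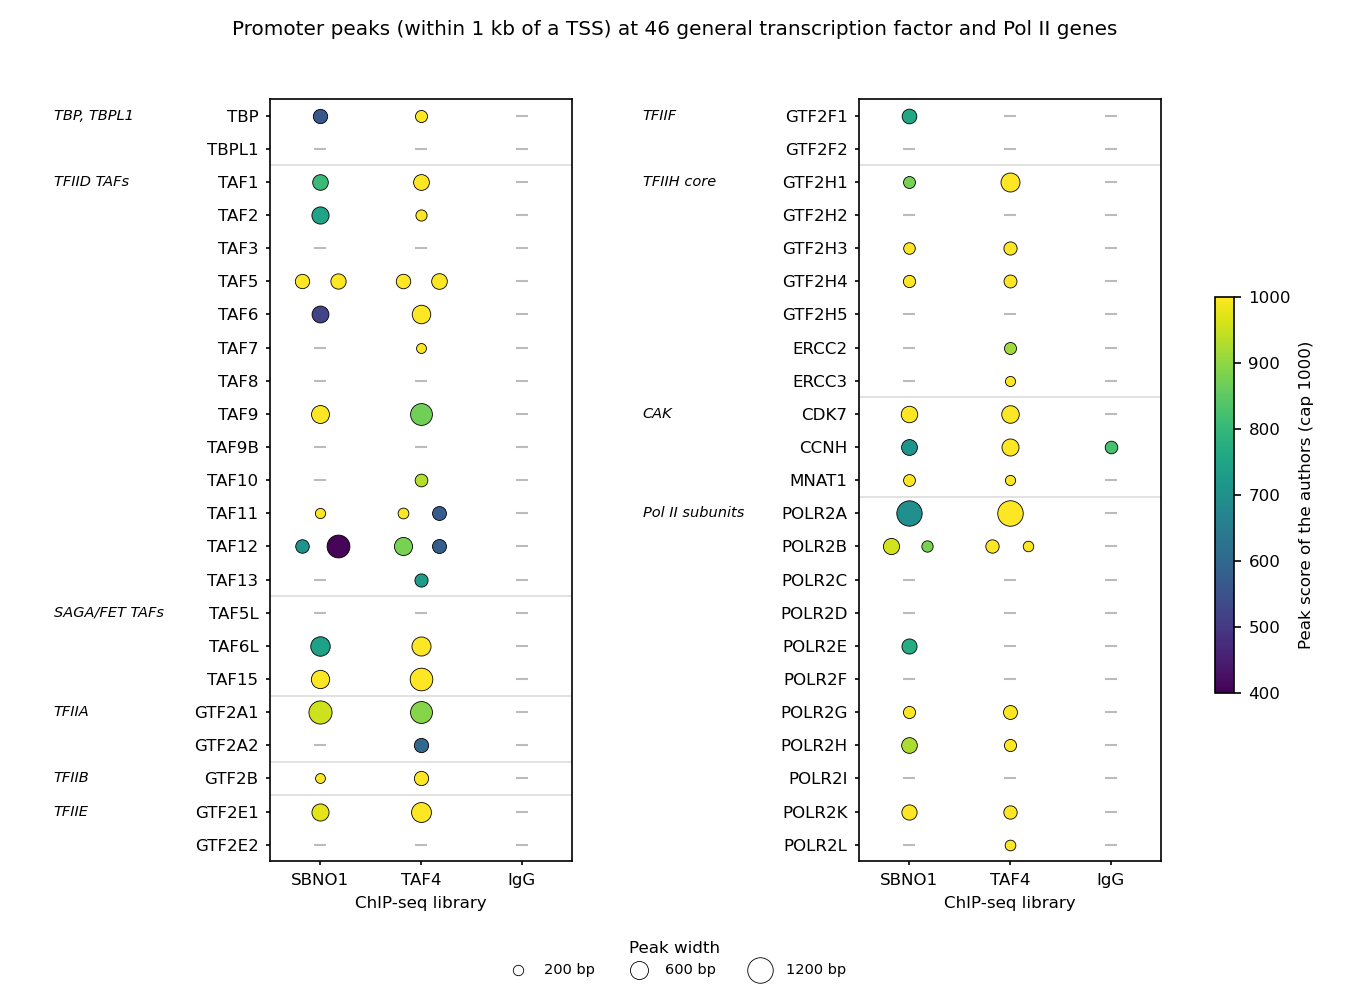
Promoter peaks at the 46 genes (rows, grouped by complex) in the SBNO1, TAF4 and IgG libraries (columns). Each circle is 1 peak, its area growing with the peak's width in bp and its colour with the score of the authors (cap 1000), and a dash marks no listed peak. SBNO1 had peaks at 26, TAF4 at 31 and IgG at 1 of the genes.

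Among the subunits of TFIID other than TAF4, 10 of the 13 TAF genes had a TAF4 peak and 7 had an SBNO1 peak, and no TAF gene had an IgG peak. TBP, which recognises the TATA box and also serves the factors of the other nuclear RNA polymerases, had a TAF4 peak at chr6:170554152-170554418 of 267 bp at the cap. Its SBNO1 peak, at chr6:170554039-170554417, was 379 bp wide and scored 564, lower than 87.1% of all SBNO1 promoter peaks. Both peaks covered the canonical TSS of TBP, and the proteasome gene PSMB1 on the opposite strand was also in reach. Its relative TBPL1, a TBP-like factor that does not bind the TATA box, had no peak within 221512 bp in the TAF4 list or within 342006 bp in the SBNO1 list.

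TAF1, the scaffold subunit with bromodomains, had an SBNO1 peak of 450 bp (score 807) at chrX:71365851-71366300 and a TAF4 peak of 460 bp (score 1000) at chrX:71365872-71366331. Both were centred upstream, covered 2 annotated start sites of TAF1 and ended before the canonical one. TAF2, which contacts the initiator element, had peaks of 544 bp for SBNO1 (score 747) and 230 bp for TAF4 (score 1000). The SBNO1 peak reached farther into the gene, with its centre at 181 bp from the canonical TSS, against -46 bp for TAF4 (negative is upstream).

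TAF5, TAF6, TAF9 and TAF12 form the core of TFIID together with TAF4, and all 4 had peaks of both proteins, against 6 with TAF4 and 3 with SBNO1 among the 9 other TAFs. Of all genes, 31.9% had a TAF4 peak, 25.7% an SBNO1 peak and 22.6% both. This division follows textbook roles and was made after the values were seen. It also rests on peaks in reach of other genes. With each peak given only to its nearest TSS, TAF6 lost its SBNO1 peak and TAF9 lost both. TAF5, a WD40-repeat subunit, had 2 peaks in each list, all at the cap. The first pair (380 bp for SBNO1, 388 bp for TAF4) covered the TSS, and the second pair (428 bp and 452 bp) lay in an intron, beginning 404 bp and 458 bp after it. TAF6 and TAF9 encode histone-fold proteins that bind each other. TAF6 had a 526 bp SBNO1 peak of score 520, lower than 91.3% of all SBNO1 promoter peaks, and a 634 bp TAF4 peak at the cap, both in reach of CNPY4 as well. TAF9 had the widest TAF4 peak of the TAF genes, 878 bp at chr5:69369343-69370220 with a score of 871, while its 592 bp SBNO1 peak at chr5:69369439-69370030 was at the cap. The genes AK6 and RAD17 lay in reach of both TAF9 peaks, so these peaks cannot be given to TAF9 alone.

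TAF12, the histone-fold partner of TAF4, has start sites in separate groups and had a pair of peaks near each of 2 of them. Near the canonical TSS the SBNO1 peak was 337 bp (score 711) and the TAF4 peak 605 bp (score 877). Upstream of the farthest start site at 28648291 lay the widest SBNO1 peak of the TAF genes, 960 bp at chr1:28648296-28649255, together with a 361 bp TAF4 peak at chr1:28648888-28649248. Both upstream peaks scored low, 407 for SBNO1 (97.9% of SBNO1 promoter peaks scored higher) and 576 for TAF4 (92.3% higher).

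The remaining histone-fold pairs were split between patterns. TAF11 had narrow peaks of both proteins at the cap, 193 bp for SBNO1 and 214 bp for TAF4 with the same start, and a further TAF4 peak of 357 bp (score 575) that lay 911 bp from a TSS and was also in reach of ANKS1A. Its partner TAF13 had a TAF4 peak alone, 320 bp at chr1:109075799-109076118 with a score of 729, and the nearest SBNO1 peak was 23995 bp away. TAF10, a subunit that TFIID shares with the coactivator SAGA, had a TAF4 peak alone of 297 bp at chr11:6612215-6612511 (score 934), with the nearest SBNO1 peak 4832 bp away. TAF8 and TAF3, both histone-fold partners of TAF10, had no promoter peak. The nearest peaks to TAF8 were 67248 bp (SBNO1) and 128929 bp (TAF4) away.

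TAF3, which reads methylated histone H3 through a PHD finger, was of interest because the study had named it with TAF4 as a protein found near SBNO1. Neither list held a peak at its promoter: the nearest SBNO1 peak was 30335 bp away and the nearest TAF4 peak 2004848 bp away. GTF2E1, which the study also listed as a protein found near SBNO1 in HuCCT1 cells, had peaks of both. Nearness of a protein to SBNO1 is not a measure of peaks at the gene that encodes it. TAF7, which binds TAF1 and restrains its activity, had a narrow TAF4 peak of 181 bp at chr5:141320716-141320896 at the cap, while the nearest SBNO1 peak was 188313 bp away. TAF9B, a close relative of TAF9, had no peak within 35333 bp in the TAF4 list or within 239976 bp in the SBNO1 list.

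Relatives of TAFs outside TFIID were also split. TAF6L, the SAGA counterpart of TAF6, had the widest SBNO1 peak of its group, 698 bp at chr11:62771211-62771908 (score 744), and a 670 bp TAF4 peak at the cap. TAF5L, the SAGA counterpart of TAF5, had neither, with the nearest peaks 396363 bp (SBNO1) and 117421 bp (TAF4) away. TAF15, an RNA-binding protein of the FET family, had peaks at the cap in both lists, 617 bp for SBNO1 and 945 bp for TAF4 at chr17:35808822-35809766. Of the 4 genes TBP, TAF5, TAF6 and TAF9, whose relatives TBPL1, TAF5L, TAF6L and TAF9B are also members, all had peaks of both proteins. Among the relatives TAF6L alone did, and 22.6% of all genes had both. This comparison was not among the planned groups. With each peak given only to its nearest TSS, TAF6 lost its SBNO1 peak and TAF9 lost both.

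TFIIA, TFIIB, TFIIE and TFIIF together comprise 7 genes, of which 4 had an SBNO1 peak, 4 had a TAF4 peak and 3 had both. Of all genes these shares were 25.7%, 31.9% and 22.6%. GTF2A1, which encodes the precursor of the large TFIIA subunits, had wide peaks in both lists, 986 bp for SBNO1 at chr14:81220742-81221727 (score 955) and 884 bp for TAF4 at chr14:81220779-81221662 (score 892). The gene for the small subunit, GTF2A2, had a TAF4 peak alone, 376 bp at chr15:59657318-59657693, whose score of 600 was below that of 90.9% of TAF4 promoter peaks. The nearest SBNO1 peak to GTF2A2 was 31779 bp away.

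GTF2B, the single gene of TFIIB, which links TBP to Pol II, had an SBNO1 peak of 179 bp at chr1:88891541-88891719 and a TAF4 peak of 375 bp at chr1:88891441-88891815. Both were at the cap, and their centres lay 2 bp apart. This SBNO1 peak was the narrowest of all SBNO1 peaks at the members.

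Within TFIIE and TFIIF each pair of partner genes was split. For TFIIE, GTF2E1 (the alpha subunit) had an SBNO1 peak of 539 bp at chr3:120742258-120742796 (score 976) and a TAF4 peak of 726 bp at chr3:120742211-120742936 (score 1000), with RABL3 on the opposite strand also in reach. GTF2E2 (the beta subunit) had neither, with the nearest peaks 232197 bp (SBNO1) and 421751 bp (TAF4) away. For TFIIF, GTF2F1 had an SBNO1 peak of 397 bp at chr19:6393143-6393539 with a score of 758 and no TAF4 peak within 19119 bp. Its partner GTF2F2 had neither, and the nearest peaks lay 85894 bp (SBNO1) and 130892 bp (TAF4) away.

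TFIIH is built from a core, which holds the enzymes that open DNA and also works in nucleotide excision repair, and from the kinase module CAK. Of its 10 genes 8 had a TAF4 peak and 6 had an SBNO1 peak, against 31.9% and 25.7% of all genes. In the core, TAF4 peaks lay at 5 of 7 genes (interval 29.0% to 96.3%) and SBNO1 peaks at 3 (9.9% to 81.6%). GTF2H1 had the widest TAF4 peak of the core, 665 bp at chr11:18322042-18322706 and at the cap, and a 262 bp SBNO1 peak (score 875) that lay inside it, upstream of the canonical TSS and in reach of HPS5. GTF2H3 and GTF2H4 had peaks at the cap in both lists. Those of GTF2H3 were 248 bp (SBNO1) and 321 bp (TAF4) and were shared with EIF2B1, and those of GTF2H4 were 276 bp at chr6:30907961-30908236 (SBNO1) and 308 bp (TAF4).

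The genes for both DNA-dependent ATPases of TFIIH had TAF4 peaks and no SBNO1 peak. At ERCC3 (XPB, the translocase that opens the promoter) the TAF4 peak was 189 bp at chr2:127294120-127294308 and at the cap, and the nearest SBNO1 peak was 63136 bp away. At ERCC2 (XPD, the repair helicase) it was 267 bp at chr19:45370590-45370856 with a score of 915, began 2 bp from a TSS without covering it, and the nearest SBNO1 peak was 6043 bp away. GTF2H5, the smallest subunit, had no peak within 127652 bp (SBNO1) or 403484 bp (TAF4).

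GTF2H2 has a near-identical copy on chromosome 5, GTF2H2C, which is not among the 46 genes, and reads from the copies cannot be placed with certainty. No promoter peak was listed at GTF2H2, with the nearest peaks 142533 bp (SBNO1) and 142534 bp (TAF4) away. At the TSS of GTF2H2C lay an SBNO1 peak of 290 bp (chr5:69560053-69560342, score 764) and a TAF4 peak of 298 bp (chr5:69560042-69560339, score 885). The count of GTF2H2 among the genes with no peak is uncertain for this reason.

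All 3 genes of the kinase module had peaks of both proteins, against 22.6% of all genes. The 3 genes lie on chromosomes with high shares over all genes. On chromosome 5, which holds CDK7 and CCNH, 40.4% of all genes had an SBNO1 and 43.9% a TAF4 peak. On chromosome 14, which holds MNAT1, the shares were 35.4% and 43.5%. CDK7, the kinase, had the widest of the module, 503 bp for SBNO1 at chr5:69234478-69234980 and 567 bp for TAF4 at chr5:69234490-69235056, both at the cap. MNAT1, the assembly factor, had narrower peaks at the cap, 259 bp for SBNO1 and 192 bp for TAF4. CCNH, which encodes cyclin H, had a 462 bp SBNO1 peak at chr5:87412864-87413325 (score 711) and a 535 bp TAF4 peak at chr5:87412594-87413128 (score 1000). It was also the 1 member with an IgG peak, 293 bp at chr5:87412862-87413154 with a score of 826, which overlapped both. Leaving out peaks that overlap an IgG peak removed CCNH from both lists and left 25 members with an SBNO1 peak and 30 with a TAF4 peak.

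For the Pol II subunits, 6 of 11 genes had an SBNO1 peak, 6 had a TAF4 peak and 5 had both. Of all genes these shares were 25.7%, 31.9% and 22.6%, and the interval for each protein at the subunits was 23.4% to 83.3%. All 7 TAF4 peaks at these genes were at the cap, where 50.1% of all TAF4 promoter peaks were. Of the 7 SBNO1 peaks 2 were at the cap, where 32.2% of all SBNO1 promoter peaks were. POLR2A, the largest subunit, which carries the heptad-repeat tail, had the widest peaks of all 46 genes in both lists: 1183 bp for SBNO1 at chr17:7483860-7485042 and 1198 bp for TAF4 at chr17:7483879-7485076. They spanned the TSS of POLR2A and reached ZBTB4 on the opposite strand. The wide SBNO1 peak was not a high-scoring one (score 696, with 70.2% of SBNO1 promoter peaks higher).

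POLR2B, the second largest subunit, had a pair of peaks at each of 2 groups of start sites, separated by 712 bp in the SBNO1 list and 874 bp in the TAF4 list. The downstream pair (237 bp and 204 bp) covered the canonical TSS and the upstream pair (481 bp and 328 bp) was in reach of NOA1. POLR2G, a stalk subunit, had peaks at the cap of 271 bp (SBNO1) and 357 bp (TAF4), whereas POLR2D, the other stalk subunit, had none within 27718 bp (SBNO1) or 27759 bp (TAF4). POLR2C, an assembly subunit, had the closest peaks of the 13 genes without one at their promoter in both lists, 15114 bp (SBNO1) and 15098 bp (TAF4) away. POLR2I, a small subunit at the jaw of the enzyme, had none within 60243 bp (SBNO1) or 25027 bp (TAF4).

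Pol II shares POLR2E, POLR2F, POLR2H, POLR2K and POLR2L with the other nuclear RNA polymerases. A peak of at least 1 of the proteins lay at 4 of these 5, against 3 of the 6 subunits of Pol II alone. Peaks of both lay at 2 of the 5 and at 3 of the 6, so the order was reversed. Of all genes, 65.0% had neither and 22.6% had both. This division was not among the planned groups. The shared subunits differed in pattern. POLR2K had both, 428 bp (SBNO1) and 328 bp (TAF4) at the cap. POLR2H also had both, 454 bp with a score of 926 (SBNO1) and 271 bp with a score of 1000 (TAF4), but they were centred 1639 bp and 1610 bp downstream of its canonical TSS, over alternative start sites. POLR2E had the SBNO1 peak printed with its sequence above, 420 bp at chr19:1095346-1095765 with a score of 772, and no TAF4 peak within 7153 bp. POLR2L had a TAF4 peak of 211 bp at chr11:842428-842638 at the cap, in reach of TSPAN4, and its nearest SBNO1 peak was 1389 bp away, just outside the distance used. POLR2F had neither, with the nearest peaks 104233 bp (SBNO1) and 108966 bp (TAF4) away.

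Across the members, peaks sat close to start sites. The 29 SBNO1 peaks at 26 members had centres from -484 to 617 bp of the nearest TSS (negative is upstream), with a median of -34 bp, and the 35 TAF4 peaks at 31 members had centres from -1089 to 683 bp with a median of -22 bp. For all genes the median centre was at -79 bp (SBNO1) and -69 bp (TAF4). A TSS of some gene was covered by 27 SBNO1 peaks (93.1%, all SBNO1 promoter peaks 80.6%) and by 32 TAF4 peaks (91.4%, all 85.8%). At their centres 12 SBNO1 peaks lay upstream of the member gene, 11 in its untranslated exons and 6 in its introns, and for TAF4 these counts were 15, 12 and 8. No member peak of either list was centred in a coding exon of its gene.

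**Figure D2:**
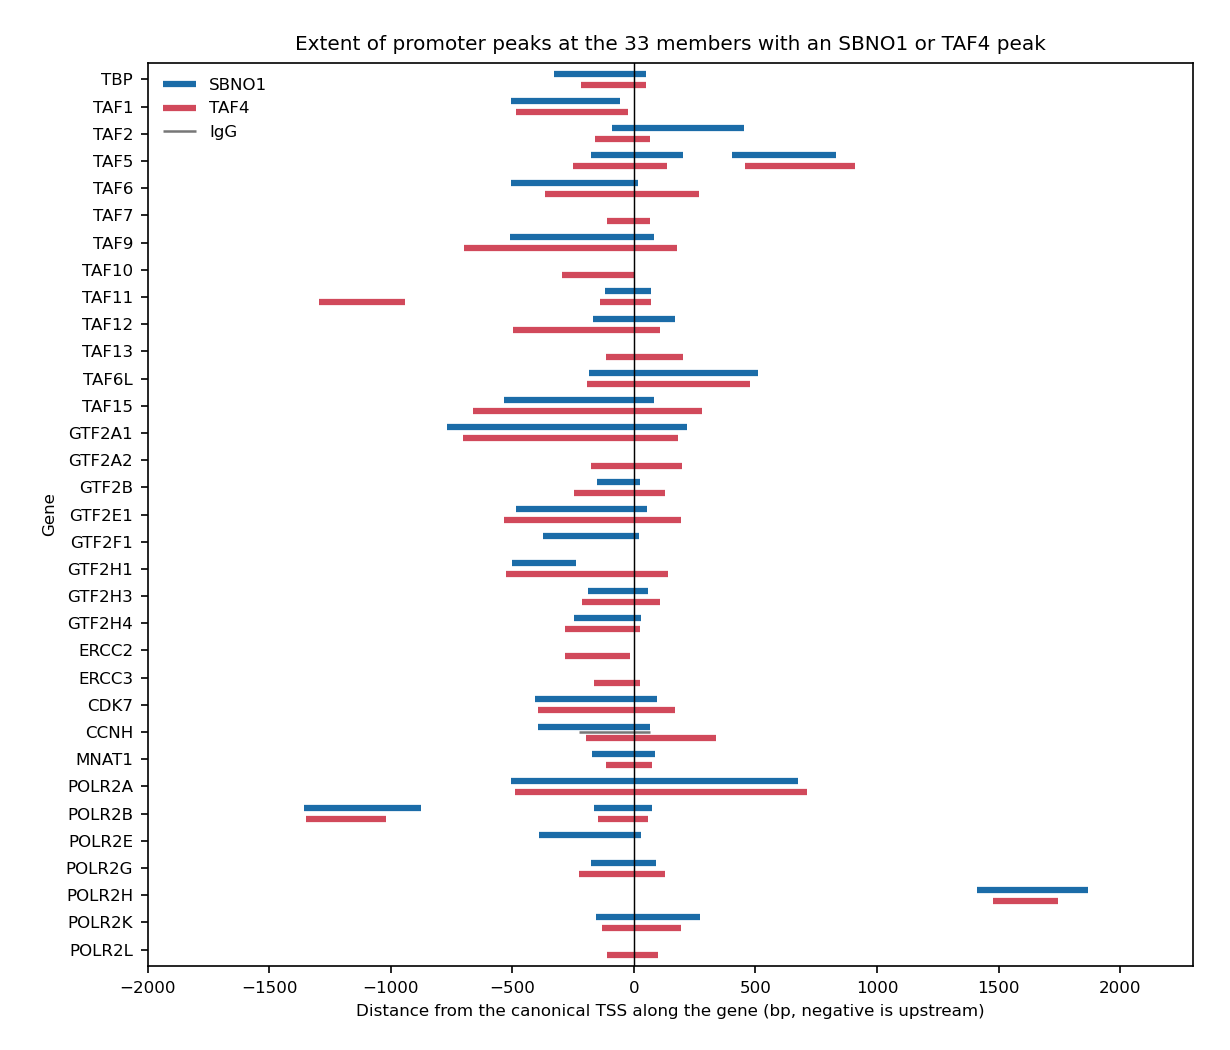
Extent of each promoter peak (bars) along the 33 genes with an SBNO1 (blue) or TAF4 (red) peak, with the IgG peak at CCNH (grey), as distance in bp from the canonical TSS, negative upstream. Most bars cross 0. The peaks of TAF1 end just before it, those of POLR2H lie 1639 bp and 1610 bp after it at their centres, and the upstream pair of TAF12 lies beyond the left edge.

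Peaks at the members were about as wide as elsewhere. Widths ranged from 179 to 1183 bp for SBNO1, with a median of 428 bp against 420 bp over all SBNO1 promoter peaks, and from 181 to 1198 bp for TAF4, with a median of 357 bp against 418 bp. Scores differed more. Of the TAF4 peaks at members 26 of 35 were at the cap (74.3%), against 50.1% of all TAF4 promoter peaks. Of the SBNO1 peaks 12 of 29 were at the cap (41.4%), against 32.2%. TAF9, TAF10, TAF11, TAF12, TAF13, GTF2A1, GTF2A2 and ERCC2 held the 9 TAF4 peaks under the cap.

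Where both proteins had peaks, these lay on the same stretch of DNA. There were 27 overlapping pairs at the 24 genes, and the distance between centres had a median of 37 bp, against 57 bp over the 4946 pairs at all genes. The signed distance (SBNO1 minus TAF4, in genome coordinates) ranged from -233 bp at CCNH to 293 bp at the upstream pair of TAF12, with a median of -2 bp. TAF4 had the wider peak in 17 pairs (63.0%, all genes 58.5%). With an overlap of at least 50% of each peak required, 19 of the 24 genes still had a shared peak.

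Members lie next to genes on the opposite strand more often than genes in general. A TSS of another protein-coding gene on the opposite strand within 1 kb was annotated for 15 members (32.6%), against 15.7% of all genes, and a peak there is counted for both genes. Among these 15, SBNO1 had a peak at 9 (60.0%) and TAF4 at 10 (66.7%), close to the 51.7% and 62.4% of all genes with such a neighbour. Among the 31 members with no such neighbour, SBNO1 had a peak at 17 (54.8%) and TAF4 at 21 (67.7%), against 20.8% and 26.2% of all genes without one. The distance of the members from the background was thus seen mainly at genes without an opposite neighbour. TAF5L (125 bp from URB2), TAF8 (156 bp from CCND3), GTF2H5 (70 bp from SERAC1), POLR2F (28 bp from C22orf23) and POLR2I (564 bp from TBCB) had an opposite neighbour and no peak.

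Genes with 1 annotated start site had peaks less often than genes with more, among members as among all genes. A peak near any TSS of a gene was counted, so more TSS gave more places for a peak to count. Members had a median of 3 TSS (1 to 25, with TAF6 at the top), the same median as all genes. Of the 6 members with 1 TSS, SBNO1 had a peak at 1 (POLR2A) and TAF4 at 2 (POLR2A and POLR2L), where the shares over all such genes were 15.3% and 19.1%. Of the 40 members with more, 62.5% had an SBNO1 and 72.5% a TAF4 peak, against 29.0% and 36.0%. At the 32 members with 3 or more TSS the shares were no higher, 62.5% and 68.8%, against 31.6% and 39.0% of all such genes.

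The RefSeq table held promoter windows of 300 bases, from 250 before to 50 after a start site, for 39 of the 46 genes, 49 windows in all, and windows of 1 gene can overlap. Members with both peaks had less G and C than members with none. The median was 56.0% over the 28 windows of genes with both, 62.5% over the 2 with SBNO1 alone, 60.5% over the 8 with TAF4 alone and 65.7% over the 11 with neither, and the ranges overlapped widely. With 1 window for each gene, the one nearest to the canonical TSS, the medians were 56.2% for the 20 genes with both and 66.0% for the 10 with neither. Over all genes the order was not the same: windows of genes with an SBNO1 peak had a median of 63.0% and those with a TAF4 peak 63.7%, against 62.3% over all 21574 windows.

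**Figure D3:**
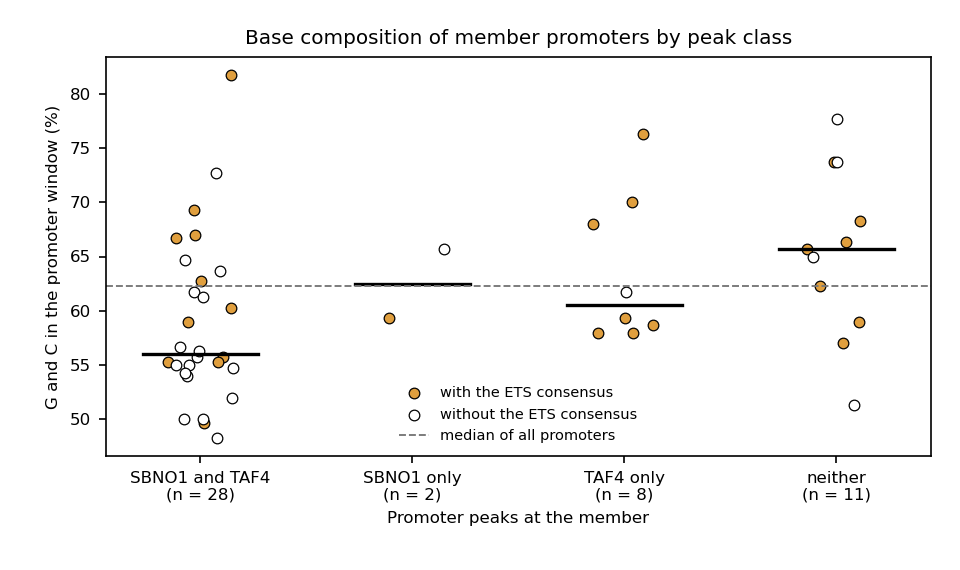
G and C content (%) of the 49 promoter windows of 39 members, by which promoter peaks the gene had. Each point is 1 window, filled where it holds the ETS consensus, bars mark medians and the dashed line the median of all promoters (62.3%). Windows of genes with both peaks centre on 56.0% and those with neither on 65.7%, with wide overlap.

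Some short words were more frequent in the members' promoters than in all promoters. The ETS word CCGGAA, searched on both strands like the others, was in 26 of 49 windows (53.1%), against 21.3% of all windows and 31.7% and 31.0% of the windows of all genes with an SBNO1 or a TAF4 peak. By pattern it was in 11 of 28 windows of genes with both, 7 of 8 with TAF4 alone and 7 of 11 with neither, the last including TBPL1 and TAF3 whose sequences are printed above. The YY1 word AAGATGGC was in 4 windows (8.16%), against 3.57% of all windows and 7.42% and 6.69% of those of all genes with an SBNO1 or a TAF4 peak. These were at TAF5, GTF2E1 and, in overlapping windows, TAF6, all genes with both peaks. The TATA word TATAAA was in 1 window, that of GTF2B (2.04%, all windows 9.46%), and CCAAT was in 11 (22.4%, all windows 34.8%). GGGCGG was in 31 (63.3%, all 56.8%), the AP-1 word TGANTCA in 2 (4.08%, all 6.18%), the NRF1 word GCGCATGC in 3 (6.12%, all 3.73%) and the ZNF143 word ACTACAA in 2 (4.08%, all 2.89%). A match describes the letters and does not show that a factor bound.

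Genes of related machineries gave a setting for these counts. Of 8 Pol I subunits 6 had an SBNO1 and 6 a TAF4 peak, and of 11 Pol III subunits 6 and 7. Among 16 general factors of Pol III and Pol I the counts were 6 and 9, among 14 SAGA subunits that are no TAF they were 6 and 6, and among 18 pausing and elongation factors they were 11 and 15. None of these genes had an IgG peak. In each of these lists the share with a peak was above the 25.7% (SBNO1) and 31.9% (TAF4) of all genes, so a high share was not particular to the genes of Pol II initiation. POLR2J, a Pol II subunit with near-identical copies that was left out of the 46, had peaks of both proteins, 438 bp at chr7:102478753-102479190 (SBNO1, score 847) and 350 bp at chr7:102478841-102479190 (TAF4, score 1000). Among 9 related genes left out of the 46, SBNO1 had a peak at 4 and TAF4 at 5, against 25.7% and 31.9% of all genes. Of these 9, GTF2H2C, POLR2J, POLR2J3 and POLR2M had both and POLR2J2 had TAF4 alone. TBPL2, TAF1L, TAF7L and GTF2A1L, which are paralogs of members, had neither.

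**Figure D4:**
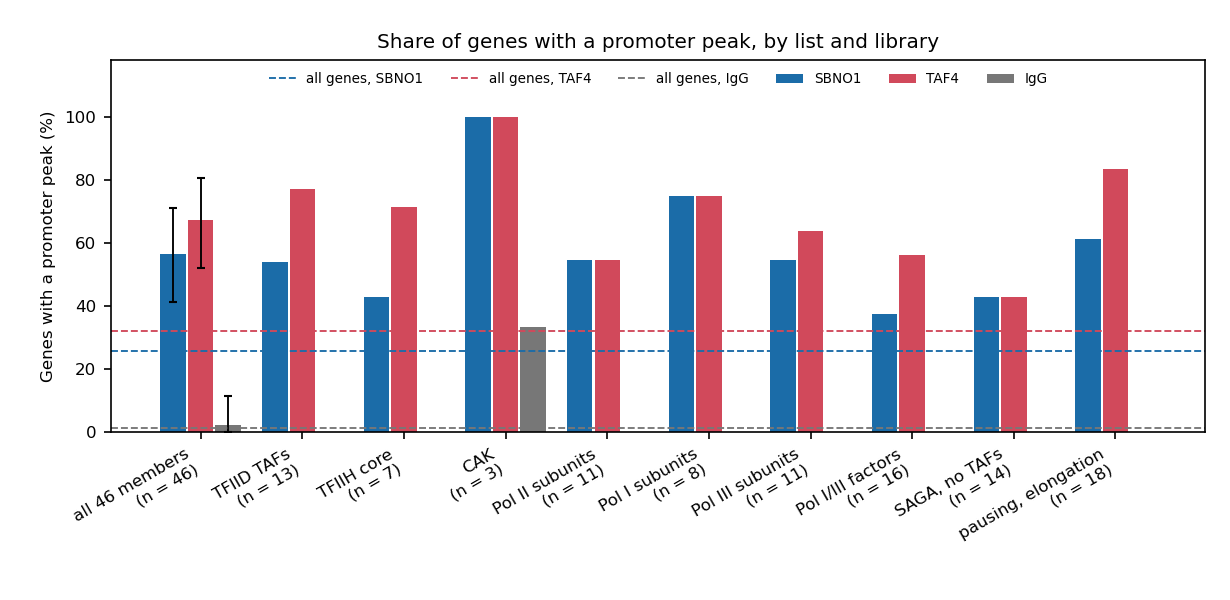
Share of genes (%) with a promoter peak of SBNO1 (blue), TAF4 (red) and IgG (grey), with n under each group. Shown are all 46 members with 95% Clopper-Pearson intervals (counting error only), the TFIID TAFs, the TFIIH core, CAK, the Pol II subunits and lists of related genes. Dashed lines mark the share of all protein-coding genes, 25.7%, 31.9% and 1.41%. Every list shown lies above the lines for SBNO1 and TAF4, and IgG is at 0 outside CCNH.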

How the data were processed

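Per the labels and the study's methods, chromatin from HuCCT1 cells was immunoprecipitated with antibodies to SBNO1 and TAF4 or with IgG, pooled over biological replicates and sequenced as short single-end reads. The reads were aligned to GRCh38.p14 by the authors. The submitters' processing notes name Bowtie2 2.5.4 and Genrich 0.6.1, whereas the paper's methods name normR for peak calling. Peak threshold, duplicate handling and use of IgG in the calls are not given in the sources used here. The deposited peak score is the authors' whole number, at most 1000, of unstated scaling, and no signal, p or summit column was used. Depth is unknown.

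From the lists, peaks were assigned with Python 3.11.15, numpy 2.4.6 and scipy 1.17.1 to every gene with a GENCODE 44 protein-coding TSS (78567 sites, mitochondrial genes left out) within 1 kb of the nearest peak edge. Coordinates are 1-based. Overlap meant 1 bp or more. Canonical means the transcript tagged so by Ensembl. Functions were tested on simulated data. All peaks lay within GRCh38 chromosomes, and all 49 member promoters matched that genome. Promoters missing from the RefSeq table were those of TAF2, TAF8, TAF15, GTF2E2, POLR2G, POLR2I and POLR2K. Peak values were to be given for TBP, TAF1, TAF3, POLR2A, GTF2B, the widest peaks of each complex, members with 1 of the proteins or IgG, and distances for members with none. Values of the other members were added after they were seen. The members, gene lists and motifs were chosen with earlier results of these data known. One marker gene of the lists is not reported here.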

Additional observations from a re-analysis of the deposited data

How the results depend on the processing

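No paired analysis was possible because there was 1 library per antibody. The counts of members fell most when each list was cut to the length of the IgG list, where SBNO1 had 3 members (2.99% of all genes), TAF4 8 (6.41%) and both 2 (2.0%), as fewer peaks were used. At that length, 1598 peaks, the score alone could not decide which peaks stayed. The cap was shared by 5591 SBNO1 and 5488 TAF4 peaks. With peaks at or above the median score of their list, 16 members had an SBNO1 peak, 0 an IgG peak and 14 both proteins (all genes: SBNO1 13.1%, TAF4 19.6%, IgG 0.350%, both 9.21%). With peaks at the highest score only, these counts were 11, 0 and 10 (all genes: SBNO1 9.14%, TAF4 17.3%, IgG 0.117%, both 6.22%). TAF4 stayed at 24 members under both filters. Under the other distances, TSS sets, list lengths and removal of IgG overlaps, SBNO1 had 21 to 27 members (20.4% to 28.4% of all genes), TAF4 28 to 31 (27.2% to 33.4%) and both 19 to 25 (18.0% to 24.3%). The lowest of these counts came from giving each peak only to its nearest TSS, by which TAF9, GTF2E1 and GTF2H3 lost both peaks and TAF6 and GTF2H1 lost SBNO1. Within 3 kb POLR2L gained SBNO1. A list is a fixed set of calls, so a missing peak may be a peak under the authors' unstated threshold.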
